A study of Mus musculus with 16 samples.

Results

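The genes described here act in the response to interferon and in the presentation of antigen peptides. The list holds 38 mouse genes, and 36 of them had a usable value among the 18820 genes measured in all. A gene counted as measured when at least 1 probe set carried its symbol and no other. Where several did, the brightest on average over the 16 arrays stood for the gene. The 2 missing genes, Igtp and Irgm2, share 1 probe set with each other and were given no value. The samples were livers of male mice on a C57Bl/6J background, 14 to 16 weeks old and housed singly. The groups, of 4 arrays each, were fed wild type (WT) mice, fed vanin-1 null (KO) mice, WT mice without food for 24 h and KO mice without food for 24 h. Vanin-1 is a pantetheinase, an enzyme that splits pantetheine into cysteamine and pantothenic acid, and the study's title ties its regulation to the fasting-activated receptor PPARα. The labels name no cell type in which the gene was removed, and whole liver is a mixture of cell types, so fewer cells of a type and less RNA per cell cannot be told apart in any value given here.

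Interferons are cytokines released when cells sense viruses or other microbes. Type I interferon leads to factor binding at interferon-stimulated response elements, through a complex that holds STAT2 and IRF9, and interferon gamma leads to binding at gamma-activated sites. Their target genes encode antiviral proteins, GTPases that attack vacuoles around microbes, chemokines that draw T cells, and the parts that cut and load peptides for MHC molecules. In the liver, hepatocytes, Kupffer cells and endothelial cells all respond to interferon, and a low level of these transcripts is present without infection.

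All levels are log2 RMA intensities as deposited, ± is the SD over 4 arrays, and a difference is fasted minus fed unless said otherwise. "Called" means a limma p below 0.05 after Benjamini-Hochberg adjustment over all 18820 genes. Vnn1, the targeted gene, was at 8.91 ± 1.61 in fed WT, 3.89 ± 0.12 in fed KO, 10.81 ± 0.69 in fasted WT and 3.98 ± 0.30 in fasted KO livers, and every WT array was above every KO array. The array labelled fasted WT replicate 4 (fasted WT 4 for short) stood apart before any test. It had the lowest value of the 4 fasted WT arrays for 36 of 36 members, against 25.1% of all genes, and the lowest of all 16 arrays for 23 members, against 8.71% of all genes. The mean over the members was 7.13 on it and 7.53 to 7.99 on the other 15 arrays. The mean of 5 pancreatic acinar markers was 8.44 on it and 4.08 to 4.27 on the other 15, and the part of this in the member values was not tested. Results are therefore given with and without that array. Fed KO 4 stood apart in another way. The mean of 14 acute phase genes was 11.97 on it and 9.44 to 10.64 on the other 15 arrays. On that array 6 members had their highest value of all 16 arrays (9.31% of all genes). That count did not set it apart, with 7 members highest on fed KO 3 (5.85%) and 6 on fasted WT 1 (7.41%).

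Promoter sequences are shown for 5 members that changed on fasting and for a divergent gene pair of which 1 member changed. All 5 have a match to at least 1 of the motifs below, so they do not stand for every member that changed. Each is from RefSeq on the build GRCm38.p6, 5′ to 3′. The first 5 are on the gene's own strand and cover the 150 bases just before the transcription start. Capitals mark matches to either motif, on either strand: GAAA, 2 free bases, GAAA (core of the interferon-stimulated response element) and TTCNNNGAA (gamma-activated site).
Irf1 (chr11:53769864-53770013, plus strand): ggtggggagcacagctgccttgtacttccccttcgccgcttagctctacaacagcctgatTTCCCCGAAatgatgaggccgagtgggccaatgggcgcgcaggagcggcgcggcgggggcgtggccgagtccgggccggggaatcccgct
Psmb8 (chr17:34198045-34198194, plus strand): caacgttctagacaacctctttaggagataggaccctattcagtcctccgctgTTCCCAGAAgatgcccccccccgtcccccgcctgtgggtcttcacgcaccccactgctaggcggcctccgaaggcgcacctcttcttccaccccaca
Gbp7 (chr3:142530186-142530335, plus strand): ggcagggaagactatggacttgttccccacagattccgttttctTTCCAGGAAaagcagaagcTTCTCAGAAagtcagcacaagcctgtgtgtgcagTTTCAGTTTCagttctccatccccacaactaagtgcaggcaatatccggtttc
Gbp3 (chr3:142559894-142560043, plus strand): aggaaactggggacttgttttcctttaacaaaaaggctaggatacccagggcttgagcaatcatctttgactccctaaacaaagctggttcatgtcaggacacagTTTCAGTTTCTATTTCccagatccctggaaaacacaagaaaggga
Rsad2 (chr12:26456453-26456602, minus strand): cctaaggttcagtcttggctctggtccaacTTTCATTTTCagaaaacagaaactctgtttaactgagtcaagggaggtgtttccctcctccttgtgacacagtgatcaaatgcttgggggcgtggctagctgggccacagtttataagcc
Psmb9 and Tap1, the 225 bases between their starts (chr17:34187331-34187555, plus strand, Psmb9 read leftwards and Tap1 rightwards): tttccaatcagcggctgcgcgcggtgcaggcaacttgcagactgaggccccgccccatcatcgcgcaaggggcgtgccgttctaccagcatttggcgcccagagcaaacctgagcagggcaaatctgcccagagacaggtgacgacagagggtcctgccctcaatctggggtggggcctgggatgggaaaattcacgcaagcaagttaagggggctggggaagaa

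Counted back from the start, the gamma-activated site of Irf1 began at -90 and that of Psmb8 at -97. Gbp7 had both motifs in these bases, Gbp3 had 2 overlapping response element cores, and Rsad2 had 1. The stretch between Psmb9 and Tap1 held neither sequence. In windows from 250 bases before to 50 after a start, the response element core was in 15 of the 36 windows of members (41.7%) and in 1131 of all 32851 windows (3.44%). The members with it were B2m, Cxcl10, Gbp2, Gbp3, Gbp7, Ifih1, Ifit1, Ifit3, Igtp, Irgm1, Irgm2, Isg15, Psme1, Rsad2 and Stat2. The gamma-activated site was in 7 of 36 member windows (19.4%) and in 2726 of all windows (8.3%). The members with it were Gbp7, Ifit2, Igtp, Irf1, Irf8, Irgm2 and Psmb8. Psmb10, Psme2, Tapbp, Cxcl9 and Xaf1, which also fell on fasting, had neither motif in their windows. The 36 windows belong to 30 of the 38 listed genes, and a match to these letters is a description of the sequence only. Any windows on chromosome 18, where Cd74 lies, were left out for the members but not from the count of all windows.

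The response to fasting in normal liver, and then the same response without vanin-1, were compared first. In WT mice 5 of the 36 members fell and none rose, among 4.27% of all genes that fell and 3.34% that rose. The 5 were Irf1, Psmb9, Psmb10, Psme2 and Gbp7, and 13.9% of the members were thus called lower. In KO mice 9 members fell (25%) and none rose, beside 4.89% of all genes lower and 4.53% higher. All 5 members called in WT were among these 9 (5 of 5 and 5 of 9), and the other 4 were Psmb8, Tapbp, Ifih1 and Cxcl9. At an unadjusted limma p below 0.05 there were 13 members in WT and 17 in KO, in either direction. Of all 18820 genes 3997 in WT and 4165 in KO were below it. The median member difference was -0.21 in WT and -0.27 in KO, against 0.011 and 0.020 over all genes, and 28 of 36 members were below 0 in each.

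Averaged over the genotypes, which uses all 16 arrays and so repeats the arrays of both comparisons, 15 members fell (41.7%) and 1 rose, beside 9.88% of all genes lower and 8.4% higher. The 6 members added to the 9 were Stat2, Ciita, Parp14, Xaf1, Gbp2 and Gbp3, and the one that rose was Rsad2. Every fasted array was below every fed array for 7 members in WT (6.39% of all genes), for 15 in KO (8.07%) and, with 8 arrays on each side, for 4 in both genotypes together (2.57%). Those 4 were Irf1, Psmb10, Psme2 and Tapbp. Without fasted WT 4, 4 members fell in WT (2.59% of all genes) and 1 rose (2.08%). In KO it was then 14 that fell (5.16%) and 1 that rose (4.72%), and in the average 12 that fell (8.78%) and 4 that rose (7.42%). The members gained in KO were Irf7, Ifit3, Parp14, Xaf1, Gbp2 and, higher, Rsad2, those lost were Psmb9 in WT and Stat2, Ciita and Parp14 in the average, and those gained in the average were Irf9, Usp18 and Dhx58, all higher. The median difference without it was -0.08 in WT, -0.27 in KO and -0.17 in the average. Without fed KO 4, the array with the highest acute phase genes, 7 members were called in KO, with Psmb9 and Gbp7 lost. In the average 13 were called. Beside them 8.12% of all genes were called in KO and 17.7% in the average, against 9.42% and 18.3% with all arrays. The part of the acute phase state in the KO values was not tested. The 3 arrays whose names end in 2 are fasted KO 1, fed WT 2 and fed KO 4. Without them 4 members were called in KO (5.12% of all genes) and 10 in the average (14.5%). Psmb9, Psme2, Tapbp, Gbp7 and Cxcl9 were lost in KO, and Stat2, Ciita, Parp14, Xaf1, Gbp2 and Rsad2 in the average. Leaving out fasted WT 4 keeps all the KO arrays, and the KO comparison changed because limma shares 1 estimate of the spread over the 4 groups.

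**Figure D1:**
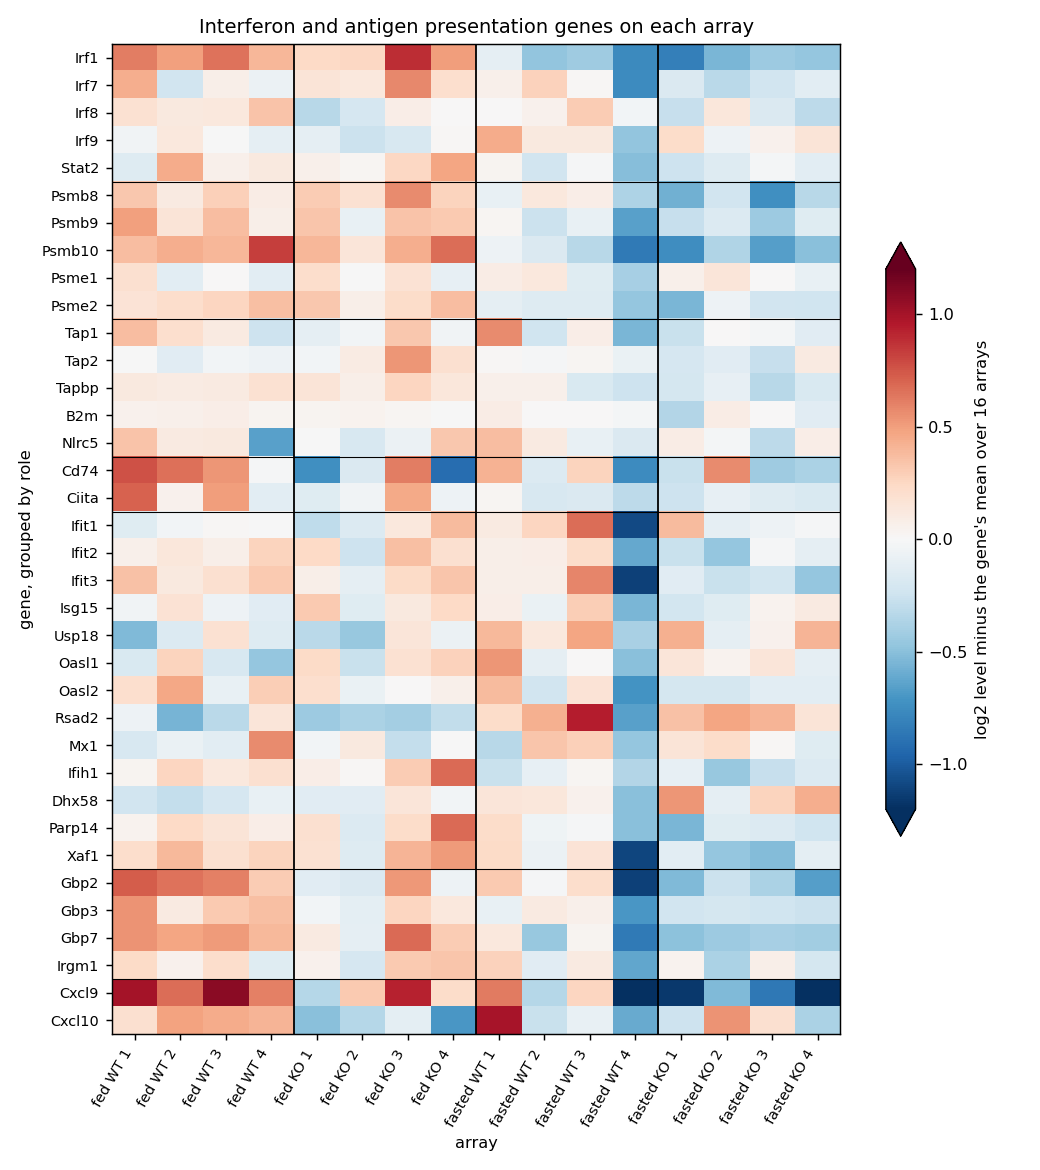
Each row is 1 of the 36 measured members, grouped by role, and each column 1 of the 16 arrays; colour gives the log2 level minus the gene's mean over the 16 arrays, from blue (lower) to red (higher). The rows of Irf1, Psmb10 and Psme2 turn from red to blue between fed and fasted arrays. Those of Psmb8 and Psmb9 do so on most arrays, and that of Psme1 does not. Rsad2 turns the other way on most arrays. The column of fasted WT 4 is blue in nearly every row, with a median deviation of -0.55.

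The counts by role and by further list below stand beside the shares of all genes given above. With all arrays these were 4.27% lower and 3.34% higher in WT and 4.89% and 4.53% in KO. In the average they were 9.88% and 8.4%. Of 5 transcription factors 1 fell in WT and in KO and 2 in the average. Irf1, a factor induced by interferon gamma that switches on antigen presentation genes, was at 8.56, 8.44, 8.60 and 8.35 on the fed WT arrays and 8.19, 8.20, 8.84 and 8.45 on the fed KO arrays. After fasting it was at 7.84, 7.48, 7.52 and 7.19 in WT and 7.13, 7.40, 7.51 and 7.49 in KO. All 8 fasted arrays lay below all 8 fed arrays. The difference was -0.98 (SE 0.15, 1.98-fold lower, limma adjusted p = 6.73e-04) in WT and -1.04 (2.05-fold lower, adjusted p = 2.53e-04) in KO, and leaving out any single array ended neither call. These values are from the brighter of 2 probe sets. The other was dim, with a mean of 4.893, and its fed and fasted arrays overlapped. It was at 4.977 to 5.248 in fed WT, 4.765 to 4.914 in fed KO, 4.794 to 4.995 in fasted WT and 4.627 to 4.821 in fasted KO.

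Stat2, a factor activated by type I interferon, was at 8.54, 9.14, 8.76 and 8.81 in fed WT and 8.76, 8.72, 8.94 and 9.17 in fed KO livers, then 8.73, 8.47, 8.68 and 8.18 in fasted WT and 8.45, 8.54, 8.67 and 8.57 in fasted KO. The KO groups did not overlap and the WT groups did. Its averaged difference of -0.32 (SE 0.10, limma adjusted p = 0.0293) was not called without fasted WT 2, fasted WT 4, fasted KO 1, fed WT 2, fed KO 3 or fed KO 4, with an adjusted p of up to 0.0609, nor without the 3 arrays ending in 2 (0.17, range over all alternatives 0.0145 to 0.17). Irf7, the amplifier of type I interferon production, was at 8.43, 7.77, 8.07 and 7.93 in fed WT and 8.15, 8.12, 8.57 and 8.20 in fed KO. After fasting Irf7 was at 8.06, 8.27, 8.01 and 7.24 in WT and 7.82, 7.67, 7.77 and 7.87 in KO, so that only the KO groups were apart, and the averaged difference of -0.32 (95% interval -0.59 to -0.05, adjusted p = 0.1) was not called; without fasted WT 4 it was -0.21. Irf9, the DNA-binding partner of STAT2, was at 8.57 to 8.80 in fed WT, 8.42 to 8.69 in fed KO, 8.20 to 9.12 in fasted WT and 8.61 to 8.90 in fasted KO livers. Its averaged difference was 0.14 (95% interval -0.07 to 0.35). Without fasted WT 4, where Irf9 was at 8.20, it was 0.23 and passed the test (adjusted p = 0.0319, range over all alternatives 0.0205 to 0.597). Irf8, a factor of myeloid cells, had an averaged difference of -0.08 (95% interval -0.25 to 0.09).

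Most immunoproteasome genes fell. Interferon gamma replaces the catalytic subunits of the standard proteasome by PSMB8, PSMB9 and PSMB10 and adds the PSME1 and PSME2 activator, which together change the peptides cut for MHC class I. Of these 5 genes 3 fell in WT, 4 in KO and 4 in the average, with medians of -0.47, -0.52 and -0.50, and none rose. Under median centring, quantile normalisation and cyclic loess of the values 2 fell in WT and 4 in KO.

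Psmb10 was at 8.63, 8.70, 8.66 and 9.09 in fed WT, 8.66, 8.41, 8.70 and 8.93 in fed KO, 8.20, 8.09, 7.93 and 7.41 in fasted WT and 7.52, 7.90, 7.60 and 7.76 in fasted KO livers. The highest fasted array was thus below the lowest fed array. The difference was -0.87 (SE 0.16, 1.82-fold lower, limma adjusted p = 0.00292) in WT and -0.98 (1.98-fold lower, adjusted p = 7.11e-04) in KO. Psme2, a subunit of the activator ring, was at 10.51, 10.55, 10.60 and 10.70 in fed WT, 10.67, 10.41, 10.56 and 10.71 in fed KO, 10.23, 10.19, 10.19 and 9.88 in fasted WT and 9.79, 10.28, 10.11 and 10.10 in fasted KO. Fed and fasted arrays did not overlap here either, and the differences were -0.47 (adjusted p = 0.011) in WT and -0.52 (adjusted p = 0.00436) in KO. For both genes leaving out any single array ended neither call, while without the 3 arrays ending in 2 the Psme2 call in KO was lost (adjusted p = 0.0581, range over all alternatives 0.00221 to 0.0581).

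Psmb8, whose promoter stretch with its gamma-activated site is shown above, was at 7.75, 7.53, 7.71 and 7.51 in fed WT and 7.73, 7.61, 7.99 and 7.69 in fed KO livers. After fasting it was at 7.33, 7.55, 7.50 and 7.05 in WT, which overlapped the fed WT values, and at 6.85, 7.19, 6.69 and 7.09 in KO, which did not overlap the fed KO values. The KO difference was -0.80 (SE 0.13, 1.74-fold lower, limma adjusted p = 5.87e-04) and the WT difference -0.27 (adjusted p = 0.226). The difference between these responses was -0.53 (95% interval -0.91 to -0.16) and was not called over all genes (adjusted p = 0.948). Psmb9 was at 8.00, 7.66, 7.87 and 7.57 in fed WT, 7.84, 7.41, 7.85 and 7.82 in fed KO, 7.53, 7.25, 7.41 and 6.85 in fasted WT and 7.23, 7.34, 7.07 and 7.36 in fasted KO. No fasted array reached a fed array of its own genotype.

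The Psmb9 differences were -0.51 (limma adjusted p = 0.0343) in WT and -0.48 (adjusted p = 0.0402) in KO, and both were close to the threshold. The WT call was lost without fasted WT 2, fasted WT 4, fed WT 1 or fed WT 3, with an adjusted p of up to 0.115, which is the value without fasted WT 4 (range over all alternatives 0.018 to 0.117). It was also lost under median centring, quantile normalisation and cyclic loess. The KO call was lost without fasted WT 2, any of the fasted KO arrays, fed KO 1, fed KO 3 or fed KO 4 (adjusted p up to 0.112) and without the 3 arrays ending in 2 (range over all alternatives 0.0152 to 0.189), while the averaged difference of -0.50 (adjusted p = 0.00198) was kept without any single array. Psme1, the partner of PSME2 in the activator ring, was not called. It was at 8.99 to 9.31 in fed WT, 9.02 to 9.33 in fed KO, 8.72 to 9.24 in fasted WT and 9.03 to 9.26 in fasted KO, and its averaged difference was -0.06 (95% interval -0.23 to 0.11).

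Some genes of the standard proteasome rose. Of 16 measured genes for standard core subunits, assembly and other activators, 1 rose in WT, 6 in KO and 7 in the average, and none fell, with an averaged median of 0.16. The largest averaged changes were those of Psma7 (0.48, limma adjusted p = 2.10e-04), Psma5 (0.33, adjusted p = 0.00212) and Psmb4 (0.30, adjusted p = 0.0126). Named for their role after their values were seen, the standard counterparts of the exchanged catalytic subunits were Psmb6 (0.16, adjusted p = 0.042), Psmb5 (0.16, adjusted p = 0.0856) and Psmb7 (0.08, adjusted p = 0.605). Only the first of these passed, and without fasted WT 4 the averaged count was 5, with Psmb6 and Psme3 no longer called.

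**Figure D2:**
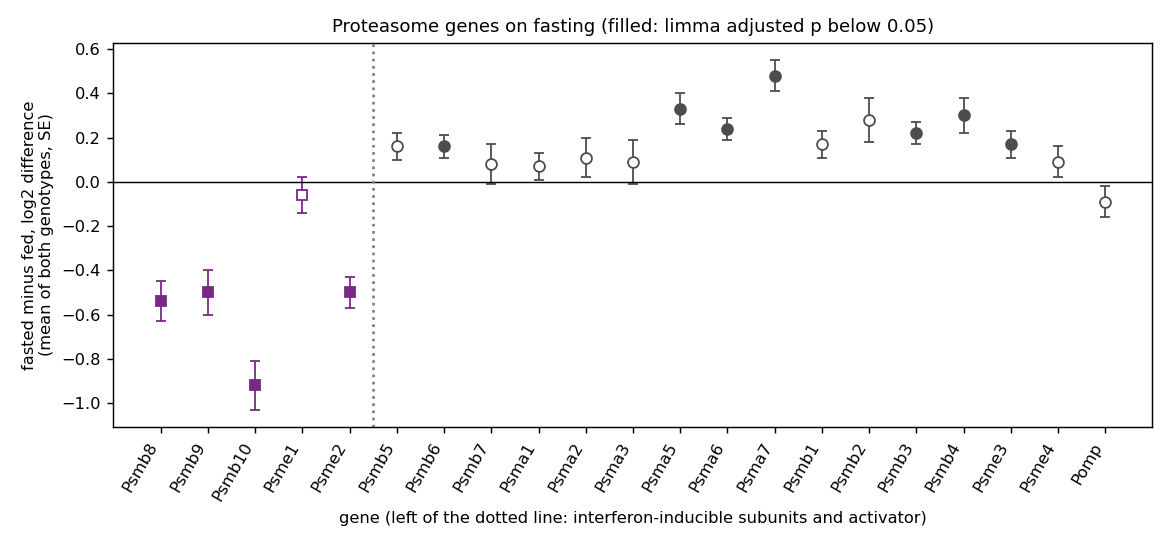
Averaged fasting difference (fasted minus fed, log2 scale, with its SE, 8 arrays on each side) for each proteasome gene; squares left of the dotted line are the 5 interferon-inducible genes and circles the 16 other genes, filled where limma's adjusted p was below 0.05. The filled squares lie between -0.92 and -0.50, the filled circles between 0.16 and 0.48, and Psme1 sits near 0.

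Of 5 members for peptide loading and MHC class I none fell in WT, where 1 had an unadjusted limma p below 0.05, and 1 fell in KO and in the average. That gene was Tapbp, encoding tapasin, which holds empty class I molecules at the peptide transporter. It was at 9.65, 9.63, 9.64 and 9.71 in fed WT, 9.69, 9.60, 9.79 and 9.67 in fed KO, 9.59, 9.59, 9.35 and 9.28 in fasted WT and 9.32, 9.43, 9.20 and 9.35 in fasted KO livers. All fasted arrays were below all fed arrays, although the KO difference was only -0.36 (SE 0.08, 1.29-fold lower, adjusted p = 0.00872) and the WT difference of -0.21 (adjusted p = 0.152) was not called. Without the 3 arrays ending in 2 the KO call was lost too (adjusted p = 0.0559, range over all alternatives 0.00367 to 0.0559). Tapbp varied little within groups, with a pooled SD of 0.10.

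Tap1 and Tap2 encode the transporter that carries peptides to the class I molecules. Tap1 shares the 225 bases shown above with Psmb9, but its averaged difference was -0.14 (95% interval -0.42 to 0.14, limma adjusted p = 0.526), and -0.05 without fasted WT 4. Its 8 fasted values, 7.03 to 8.15, covered the whole range of its fed values, 7.33 to 7.95. Tap2 was at 7.06, 6.93, 7.04 and 7.01 in fed WT, 7.04, 7.17, 7.60 and 7.26 in fed KO, 7.08, 7.05, 7.09 and 6.99 in fasted WT and 6.87, 6.93, 6.79 and 7.18 in fasted KO. The KO difference was -0.33 (adjusted p = 0.0609) and the WT difference 0.04, neither of them called. B2m, the invariant light chain of class I molecules, was at 12.89 to 12.98 on all 8 fed arrays, at 12.87 to 12.99 on the fasted WT arrays and at 12.55, 12.99, 12.90 and 12.76 on the fasted KO arrays. Its averaged difference was -0.08 (95% interval -0.20 to 0.04). Nlrc5, the activator of class I genes, had an averaged difference of 0.01 (95% interval -0.26 to 0.28) on the brightest of its 19 probe sets. The others were not tested singly. On the next brightest the fasted KO arrays, at 7.94 to 8.21, were all above the fed KO arrays, at 7.59 to 7.93. The WT groups overlapped there, and on many of the other probe sets the KO groups overlapped too.

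In the MHC class II pathway, which serves antigen-presenting cells, 1 of 2 members fell. Ciita, the master activator of class II genes, was dim, with a mean of 4.86 over the 16 arrays, below the medians of the arrays over all genes (5.66 to 5.83). It was at 5.57, 4.92, 5.37 and 4.74 in fed WT, 4.72, 4.82, 5.32 and 4.80 in fed KO, 4.89, 4.67, 4.69 and 4.55 in fasted WT and 4.62, 4.77, 4.71 and 4.68 in fasted KO livers. The 4 highest values were all on fed arrays, and the others overlapped. The averaged difference of -0.34 (limma adjusted p = 0.0455) was lost without fasted WT 2, 3 or 4, without any fasted KO array, and without fed WT 1, fed WT 3, fed KO 2 or fed KO 3 (adjusted p up to 0.094). It was also lost under median centring and without the 3 arrays ending in 2, in a range over all alternatives of 0.0124 to 0.094. Cd74, the invariant chain that guards the class II groove, was at 9.85, 9.74, 9.61 and 9.07 in fed WT, 8.35, 8.91, 9.70 and 8.17 in fed KO, 9.50, 8.92, 9.35 and 8.33 in fasted WT and 8.82, 9.65, 8.66 and 8.70 in fasted KO. It varied widely within groups, with a pooled SD of 0.52, and the groups overlapped. Its fasting difference was -0.54 in WT and 0.18 in KO (adjusted p = 0.355 and 0.808), and without fasted WT 4 the WT value was -0.31.

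The 13 antiviral effectors and sensors moved in both directions. In WT none was called, with 1 at an unadjusted limma p below 0.05. In KO 1 fell, and in the average 3 fell and 1 rose, while 7 of the 13 differences were below 0 and the median was -0.12. Of all genes 4.89% fell in KO, and 9.88% fell and 8.4% rose in the average, so single calls here are near those shares. Rsad2, encoding viperin, an enzyme that makes a chain-ending nucleotide against viral polymerases, was the only member called higher with all arrays. It was at 7.78, 7.28, 7.51 and 7.98 in fed WT and 7.40, 7.46, 7.43 and 7.54 in fed KO livers. After fasting it was at 8.06, 8.26, 8.78 and 7.19 in WT and 8.19, 8.31, 8.25 and 7.99 in KO. The KO groups did not overlap (every fasted array above every fed array, as for 8.89% of all genes), and in WT fasted WT 4 was below every fed array while the other 3 fasted arrays were above them all.

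The averaged rise of Rsad2 was 0.58 (SE 0.16, 1.50-fold higher, limma adjusted p = 0.0183), and leaving out any single array did not end that call, while leaving out the 3 arrays ending in 2 did (adjusted p = 0.081, range over all alternatives 2.81e-04 to 0.081). The separate differences were 0.44 in WT (adjusted p = 0.295) and 0.73 in KO (adjusted p = 0.0567). Without fasted WT 4 the WT difference was 0.73 (adjusted p = 0.0169, range over all alternatives 0.0169 to 0.651) and the KO difference stayed at 0.73 (adjusted p = 0.00544, range 5.19e-04 to 0.157). Rsad2 thus moved against the median of the members, with the response element core of its promoter shown above shared with Gbp3 and Gbp7, which fell.

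Of the antiviral genes that fell, Ifih1, the sensor MDA5 of long double-stranded RNA, was at 8.99, 9.21, 9.08 and 9.15 in fed WT, 9.04, 8.97, 9.26 and 9.64 in fed KO, 8.69, 8.86, 8.98 and 8.61 in fasted WT and 8.86, 8.50, 8.68 and 8.79 in fasted KO livers. No fasted array reached a fed array of its genotype. The KO difference was -0.52 (SE 0.13, 1.43-fold lower, limma adjusted p = 0.0158), lost without fasted KO 2 (adjusted p = 0.0543, range over all alternatives 0.0084 to 0.0543), and the WT difference was -0.32 (adjusted p = 0.155).

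Parp14, an ADP-ribosyltransferase of macrophage signalling, was at 8.11 to 8.31 in fed WT, 8.26, 7.90, 8.29 and 8.75 in fed KO, 8.29, 8.02, 8.05 and 7.57 in fasted WT and 7.52, 7.92, 7.90 and 7.83 in fasted KO. Its groups overlapped. Xaf1, a gene linked to interferon-induced cell death, was at 6.61 to 6.80 in fed WT, 6.26 to 6.93 in fed KO, 6.64, 6.34, 6.58 and 5.31 in fasted WT and 6.29, 5.95, 5.89 and 6.30 in fasted KO. Its lowest value, 5.31, was on fasted WT 4. The averaged differences were -0.36 for Parp14 (limma adjusted p = 0.0346) and -0.50 for Xaf1 (adjusted p = 0.0358). The Parp14 call was lost without any of 9 arrays (fasted WT 2 or 4, fasted KO 1 or 4, fed WT 2 or 3, fed KO 1, 3 or 4), with an adjusted p of up to 0.0781. The Xaf1 call was lost without any of 8 arrays (fasted KO 2 or 3, fed WT 1, 2 or 4, fed KO 1, 3 or 4), with an adjusted p of up to 0.0703, and under quantile normalisation, cyclic loess and the replicate block (range over all alternatives 0.0182 to 0.121). The averaged Xaf1 difference was -0.35 without fasted WT 4, and the WT difference was -0.16 in place of -0.46. The Parp14 call was also lost with the replicate block (adjusted p over all alternatives 0.0103 to 0.185).

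Usp18 and Dhx58 had higher means after fasting. Usp18, a protease that removes ISG15 from proteins and also limits interferon receptor signalling, was at 7.82, 8.18, 8.53 and 8.19 in fed WT, 8.02, 7.89, 8.49 and 8.28 in fed KO, 8.74, 8.47, 8.82 and 7.96 in fasted WT and 8.77, 8.24, 8.40 and 8.75 in fasted KO livers. The averaged difference was 0.35 (95% interval 0.06 to 0.63, limma adjusted p = 0.0917), and 0.44 without fasted WT 4 (adjusted p = 0.0197, range over all alternatives 0.0197 to 0.216). Dhx58, the helicase LGP2, was at 7.01 to 7.20 in fed WT, 7.16 to 7.44 in fed KO, 7.44, 7.43, 7.34 and 6.79 in fasted WT and 7.82, 7.18, 7.56 and 7.73 in fasted KO. Its averaged difference was 0.24 (95% interval 0.02 to 0.45, adjusted p = 0.12), and 0.32 without fasted WT 4 (adjusted p = 0.0155, range 0.0155 to 0.343).

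The other 7 antiviral members were not called in any comparison with all arrays. The averaged difference was 0.04 for Ifit1 (95% interval -0.35 to 0.42), -0.27 for Ifit2 (-0.51 to -0.03) and -0.37 for Ifit3 (-0.72 to -0.02), whose products bind viral RNA. It was -0.12 for Isg15, a ubiquitin-like modifier (95% interval -0.34 to 0.10), and 0.01 for Mx1, a GTPase that blocks influenza virus (-0.26 to 0.29). It was 0.04 for Oasl1 (-0.24 to 0.32) and -0.27 for Oasl2 (-0.52 to -0.01), both relatives of the oligoadenylate synthetases. With fasted WT 4 left out these averaged differences were 0.21 for Ifit1, -0.18 for Ifit2, -0.20 for Ifit3, -0.04 for Isg15, 0.08 for Mx1, 0.12 for Oasl1 and -0.16 for Oasl2, again none of them called. Ifit2, Isg15 and Mx1 were dim, with means of 5.53, 4.94 and 4.93. All 7 had their lowest value of the 16 arrays on fasted WT 4. Ifit3 reached its highest value, 8.44, on fasted WT 3 and its lowest, 6.73, on fasted WT 4, both in the same group.

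The interferon-induced GTPases, which gather on vacuoles around microbes, fell in 1 of 4 cases in WT and in KO and in 3 of 4 in the average, with an averaged median of -0.50. Gbp7 was at 7.86, 7.79, 7.83 and 7.71 in fed WT, 7.43, 7.21, 8.00 and 7.62 in fed KO, 7.45, 6.86, 7.35 and 6.47 in fasted WT and 6.83, 6.88, 6.92 and 6.90 in fasted KO livers. Fed and fasted arrays were apart within each genotype, and the 4 fasted KO values lay closest together. The difference was -0.77 (1.70-fold lower, limma adjusted p = 0.0137) in WT and -0.68 (1.60-fold lower, adjusted p = 0.0227) in KO. The KO call was lost without fasted KO 1, fasted KO 4, fed KO 3 or fed KO 4 (adjusted p up to 0.084), and the averaged call (-0.72, adjusted p = 6.30e-04) was kept without any single array. Without the 3 arrays ending in 2 the KO call was lost as well (0.136, range over all alternatives 0.00589 to 0.136).

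Gbp2 was at 7.32, 7.25, 7.20 and 6.90 in fed WT, 6.46, 6.42, 7.12 and 6.54 in fed KO, 6.91, 6.58, 6.81 and 5.48 in fasted WT and 6.07, 6.34, 6.22 and 5.94 in fasted KO livers. The KO groups were apart and the WT groups met at 6.90 and 6.91. Its averaged difference was -0.61 (1.52-fold lower, limma adjusted p = 0.018), a call lost without the 3 arrays ending in 2 (adjusted p = 0.0745, range over all alternatives 0.00771 to 0.0745). The WT difference was -0.72 with fasted WT 4 and -0.40 without it, and was called in neither. Gbp3 was at 7.05, 6.62, 6.82 and 6.87 in fed WT, 6.48, 6.39, 6.77 and 6.64 in fed KO, 6.42, 6.62, 6.57 and 5.81 in fasted WT and 6.25 to 6.30 on the 4 fasted KO arrays, for an averaged difference of -0.39 (1.31-fold lower, adjusted p = 0.0127). Irgm1, a regulator of the GTPases at the vacuole, was at 8.69 to 9.07 in fed WT, 8.64 to 9.17 in fed KO, 8.21 to 9.11 in fasted WT and 8.46 to 8.91 in fasted KO, with an averaged difference of -0.22 (95% interval -0.47 to 0.04), or -0.13 without fasted WT 4.

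The chemokines Cxcl9 and Cxcl10 both bind CXCR3 on T cells, and they behaved differently. Cxcl9, whose induction depends on interferon gamma, was at 9.34, 9.01, 9.42 and 8.94 in fed WT, 8.00, 8.65, 9.26 and 8.56 in fed KO, 8.96, 8.00, 8.60 and 7.08 in fasted WT and 7.18, 7.81, 7.48 and 7.12 in fasted KO livers. The KO groups did not overlap, while the highest fasted WT array just exceeded the lowest fed WT array. The KO difference of -1.22 (SE 0.32, 2.34-fold lower, limma adjusted p = 0.0213) was lost without fasted KO 1, fasted KO 4 or fed KO 3 (adjusted p up to 0.0801), and without the 3 arrays ending in 2 (0.125, range over all alternatives 0.00373 to 0.125). The WT difference of -1.02 (adjusted p = 0.0636) was not called, and it was -0.66 without fasted WT 4. The averaged difference of -1.12 (2.17-fold lower, adjusted p = 0.00204) kept its call without any single array. It was the largest among the members with all arrays, and without fasted WT 4 it was -0.94, beside -0.96 for Irf1. Cxcl10 was at 6.11, 6.40, 6.36 and 6.33 in fed WT, 5.42, 5.58, 5.80 and 5.22 in fed KO, 6.91, 5.65, 5.83 and 5.31 in fasted WT and 5.67, 6.46, 6.11 and 5.54 in fasted KO. Its fasting difference was -0.37 in WT and 0.44 in KO, neither of them called, and the average was 0.03 (95% interval -0.36 to 0.43). These were -0.17 in WT and 0.14 in the average without fasted WT 4.

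**Figure D3:**
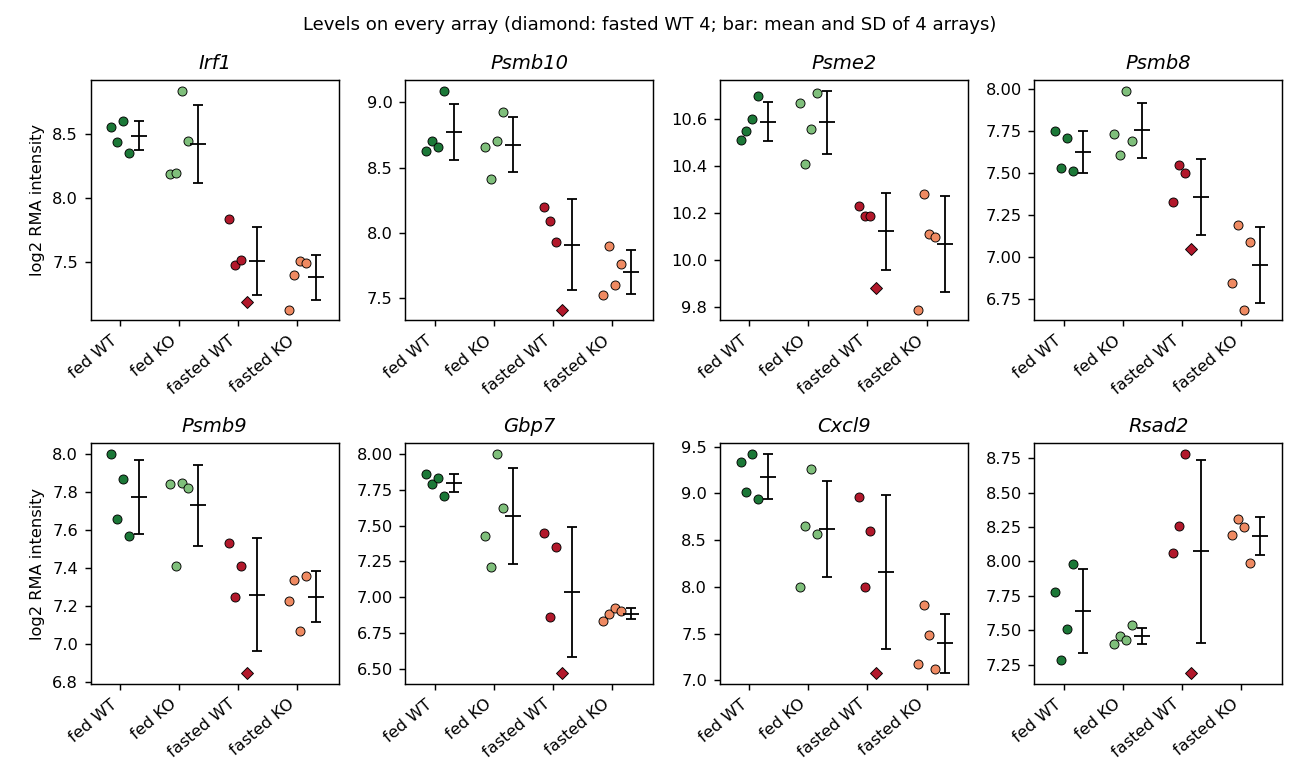
Log2 RMA intensity of 8 members on each of the 16 arrays, 4 per group, with the mean and SD of each group beside the points; the diamond is fasted WT 4, and the vertical axes differ between panels and do not start at 0. Irf1, Psmb10 and Psme2 show fed and fasted arrays apart in both genotypes, and in every panel the diamond is the lowest fasted WT point.

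**Figure D4:**
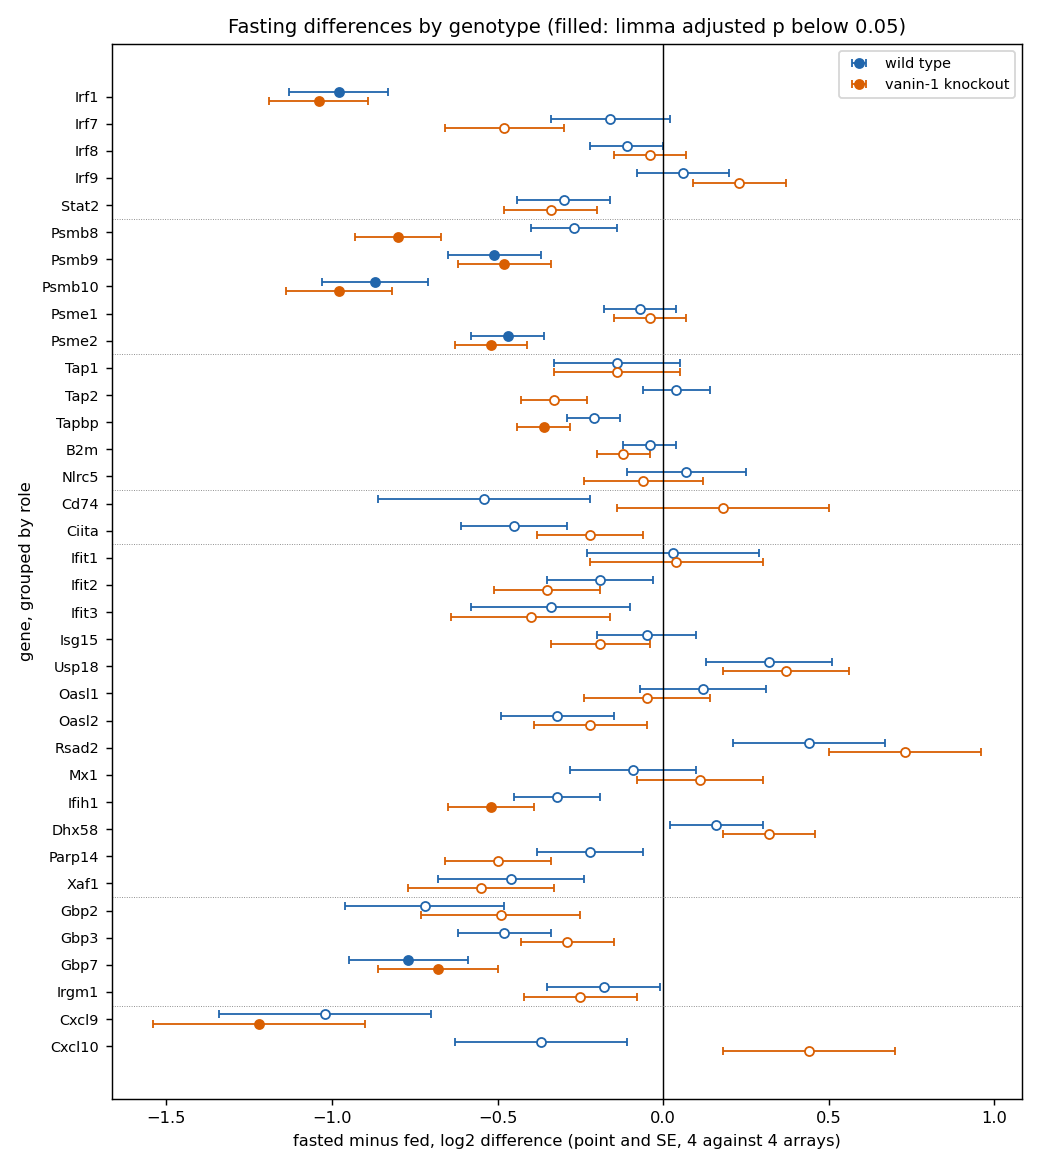
Fasting difference of each member in WT (blue) and KO (orange) livers on the log2 scale, with its SE, 4 arrays against 4; filled points had a limma adjusted p below 0.05. The filled points, 5 in WT and 9 in KO, are all left of 0, and Rsad2, Usp18 and Dhx58 lie right of 0 in both genotypes without being called in either.

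The effect of vanin-1 loss was then compared within the fasted and within the fed livers. No member was called in either comparison, beside 3 genes of all (0.0159%) in fasted and 1 gene (0.00531%) in fed livers. No member and no other gene (0%) had a called difference between the genotypes' fasting responses. At an unadjusted limma p below 0.05 there were 3 members in the fasted comparison (Psmb8, Dhx58 and Cxcl9), 5 in the fed comparison (Irf8, Tap2, Cd74, Gbp2 and Cxcl10) and 3 in the difference of responses (Psmb8, Tap2 and Cxcl10). Of all 18820 genes 1033, 1084 and 924 had such an unadjusted limma p in these 3 comparisons. The lowest adjusted p of any member was 0.85, 0.855 and 0.948 in turn. The largest fed difference, KO minus WT, was that of Cxcl10 at -0.80 (95% interval -1.35 to -0.24), and that of Cd74 was -0.79 (95% interval -1.46 to -0.11). For Cxcl10 all 4 fed KO arrays were below all 4 fed WT arrays, as they were for Irf8. The share of all genes apart in this way was not counted. The largest fasted difference was that of Cxcl9 at -0.76 (95% interval -1.44 to -0.09).

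The array fasted WT 4 also bore on the fasted comparison of genotypes. With it 25 of 36 members had a lower mean in fasted KO than in fasted WT livers, with a median of -0.07. Without it 34 of 36 did, with a median of -0.19, and Cxcl9 was at -1.13. Fasted WT 4 was the lowest fasted WT array for all 36 members, so leaving it out could only lower these differences. The move from 25 to 34 members was thus fixed in direction beforehand. No member was called without fasted WT 4 either (0.0106% of all genes were). At an unadjusted limma p below 0.05 there were 13 members, beside 860 of all 18820 genes. In fed livers 21 of 36 members had a lower mean in KO, with a median of -0.03. The same 4 fasted KO arrays enter the fasted comparison and the KO fasting response, so a low value there moves both.

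Other genes of the interferon pathway were read from further lists. Of 23 further interferon-stimulated genes 4 fell in WT, 4 in KO and 11 in the average, none rose in any of these, and the averaged median was -0.37. Without fasted WT 4, 2 fell in WT, 8 in KO and 10 in the average, where 2 rose. With all arrays the largest averaged changes were those of Gbp4 (-0.78, limma adjusted p = 0.00459), Ly6e (-0.71, adjusted p = 0.00358) and Rtp4 (-0.63, adjusted p = 0.0137). Of 9 kinases, other STATs and other IRFs 2 fell in WT and in KO, namely Irf5 and Irf2, and 4 fell in the average. Irf5, a factor downstream of Toll-like receptors, had an averaged difference of -0.90 (adjusted p = 1.22e-04). Irf2, which binds the same sites as IRF1, had one of -0.51 (adjusted p = 2.98e-05). Of 9 further class I and loading genes 1 fell in WT and 5 in KO and in the average, led by Tapbpl (-0.46), Erap1 (-0.37) and H2-Q10 (-0.37). None of 9 class II molecules was called, with 2 in WT, 0 in KO and 1 in the average at an unadjusted limma p below 0.05.

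At the top of the pathway little passed the test. Among 11 interferons and receptor genes 1 rose in KO and 2 in the average, Ifngr2 (0.41, limma adjusted p = 0.00622) and Ifnar2 (0.19, adjusted p = 0.0487). Ifng and Ifnb1 stayed near the low end of the scale, at 3.90 to 4.23 and 3.03 to 3.44 over the 16 arrays. Of 9 inhibitors Trim24 rose in WT (1.03, adjusted p = 0.00306), Socs3 fell in KO (-1.40, adjusted p = 0.0037) and Ptpn6 rose in KO (0.48, adjusted p = 0.00728). Of 12 genes of nucleic acid sensing none was called in WT, with 1 at an unadjusted p below 0.05, and 2 fell in KO, Ikbke (adjusted p = 7.40e-04) and Tlr3 (adjusted p = 0.0361). Of 6 further chemokines 1 fell in KO, Cxcl1 (-2.11, adjusted p = 0.0124), and none was called in WT, with 1 at an unadjusted p below 0.05. Cxcl1 was at 8.59 and Socs3 at 7.67 on fed KO 4, the array with the highest acute phase genes, and both KO calls were kept without any single array. Of the 14 acute phase genes 1 fell in WT, and 2 fell and 1 rose in KO, where the median was -0.71.

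Markers of the cell types in liver were measured beside the members. The hepatocyte marker mean was 13.13 to 13.33 on all 16 arrays. Of 10 Kupffer cell and macrophage markers 1 fell in WT (Adgre1, -0.89, limma adjusted p = 0.0384), none in KO, where 2 had an unadjusted p below 0.05, and 4 in the average (Adgre1, Cd5l, Csf1r and Vsig4), with an averaged median of -0.35. Their mean ranged from 8.51 to 9.21 in fed WT, 8.37 to 8.66 in fed KO, 8.19 to 8.72 in fasted WT and 7.97 to 8.73 in fasted KO livers. Without fasted WT 4 none of the 10 was called in WT and 2 were in the average, Adgre1 and Csf1r. The mean over T and NK cell markers was 4.35 to 4.78, over B cell markers 4.56 to 5.09 and over conventional dendritic cell markers 4.67 to 5.16, all below the array medians. Of 5 stellate cell markers 2 fell in WT and in KO and 3 in the average. The part of these cells in the fall of the members was not tested.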

How the data were processed

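Liver RNA of 4 groups of 4 samples was hybridised to whole-transcript arrays. The deposited values are log2 intensities that the authors made by RMA, per the submitters' processing notes, a method that usually subtracts background, sets all arrays to the same distribution and combines the probes of each probe set. The RMA version, software and probe set annotation were not given in the sources used here. Of 35556 probe sets, 21218 carried 1 symbol, 1881 several and 12457 were unnamed; 21185 matched RefSeq by Entrez ID. Genes with over 1 probe set (1386) took the brightest on average. Array medians were 5.19 to 5.29, within-group correlations 0.989 to 0.996, and the 4 arrays per group limit the precision.

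Group means were fitted to all 18820 genes and 16 arrays with limma 3.58.1 in R 4.3.3 (lmFit and eBayes, two-sided tests, Benjamini-Hochberg adjustment over all genes in each comparison), and the scripts were tested on simulated data. With the arrays centred on their medians, 1014 genes rose and 542 fell in WT, against 629 and 803 as deposited, and 2426 rose and 1397 fell in the average, against 1580 and 1860. Members and gene lists were chosen with earlier results of these data known. Every measured member is named; values on each array are given for called members and for up to 2 further members of a role, and from other lists at most the 3 largest called genes. The labels do not say that the samples of a group were separate animals, so a p-value reflects only how these samples vary, which may be technical. Alternatives were other normalisations, filters on dim genes, probe set means, variance priors, array weights, subsets of the groups, blocks, a stricter threshold and leaving out arrays.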

Additional observations from a re-analysis of the deposited data

Results flagged for a closer look

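Among 144 pairs of a member and a group of 4 arrays, 8 had 1 array far from the other 3 (a gap beyond Dixon's 95% critical value), where chance gives about 1 in 20. Psmb9 was at 7.41 on fed KO 2 and at 7.82 to 7.85 on the other fed KO arrays. Psmb10 was at 9.09 on fed WT 4, above 8.63 to 8.70 on the others. Psme2 was at 9.88 on fasted WT 4, below 10.19 to 10.23, and Dhx58 was at 6.79 on the same array, below 7.34 to 7.44. Cd74 was at 9.65 on fasted KO 2, above 8.66 to 8.82. Ciita was at 5.32 on fed KO 3, above 4.72 to 4.82, and Gbp2 was at 7.12 on the same array, above 6.42 to 6.54. Mx1, a dim gene, was at 5.49 on fed WT 4, above 4.73 to 4.85.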

How the results depend on the processing

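Across 31 settings beside the main one, no member changed direction while called, and the median member difference ranged from -0.30 to -0.08 in WT, -0.36 to -0.22 in KO and -0.30 to -0.17 in the average. At an adjusted p below 0.01 the called members numbered 2 instead of 5 in WT, 5 instead of 9 in KO and 9 instead of 16 in the average. The share of all genes called was then 3.06% instead of 7.61% in WT, 4.67% instead of 9.42% in KO and 10.4% instead of 18.3% in the average. Without the 3 arrays whose names end in 2 there were 4 in KO (5.12% of all genes) and 10 in the average (14.5%). Leaving out each array in turn gave 4 to 8 members in WT (8 without fasted WT 1), 6 to 15 in KO (15 without fasted WT 4, and 6 without fasted KO 1 or fed KO 3) and 12 to 17 in the average. Of all genes 8.54% were called in WT without fasted WT 1, and 6.05% without fed WT 1, which gave 4 members. In KO the share was 9.89% without fasted WT 4, 6.46% without fasted KO 1 and 6.83% without fed KO 3. In the average it was 16.2% without fed KO 3 (12 members) and 18.6% without fasted WT 1 (17 members). The comparisons of genotypes and of their fasting responses gave 0 called members (0 to 0) in every setting in which they were run. With the title number as a replicate block there were 7 members in WT, adding Cxcl9 and Gbp2, 9 in KO and 14 in the average, losing Parp14 and Xaf1. With that block 7.04% of all genes were called in WT, 8.81% in KO and 17.4% in the average. Samples with the same number did not deviate together (correlations of -0.22 to 0.21 over 24 pairs, and 3 of 16 arrays closest to their own number), so the numbers were not taken to pair them. Leaving out fasted WT 4 and fed KO 4 together, chosen after seeing the low member values of the first and the high acute phase genes of the second, gave 5 in WT, 11 in KO and 16 in the average. Beside these, 5.26% of all genes were called in WT, 8.56% in KO and 16% in the average. The fit to only the groups compared was made for single comparisons, not for the average or the difference of responses. The dim members Ciita, Ifit2, Isg15 and Mx1 had means below the array medians over all genes, and their signal over background was not analysed here.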
